A study of Mus musculus with 12 samples.

Results

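The mRNAs of the cytosolic ribosomal proteins were followed between the sub-polysomal and the polysomal RNA of 4T1, a line of mammary carcinoma cells from the mouse. Members were all listed genes with a symbol of the Rpl, Rps or Rplp series, including suffixes for paralogues, and without pseudogenes named with a "-ps" suffix or the S6 kinase genes. The rule found 88 genes among the 55376 listed, 53 named for the large and 35 for the small subunit. It used no measured value, but the members and the lists of genes below were chosen with earlier results of these data known. In the mouse annotation 82 of them had a coding sequence, and 6 (Rpl32l, Rpl6l, Rps12l1, Rps3a2, Rps3a3 and Rps4l) were annotated as processed pseudogenes in spite of their names. All cells were stably transfected under G418 selection. The mock cells carried the empty vector and the METTL7A1 cells carried Mettl7a1 cDNA under a CMV promoter, so that METTL7A1 was over-expressed. In both, cycloheximide at 0.1 mg/ml for 5 min held ribosomes on the mRNA before cytoplasmic extracts were separated on sucrose gradients. The sub-polysomal pool combined fractions 3 to 7, with the 40S, 60S and 80S peaks, and the polysomal pool fractions 8 to 11. Each of the 4 groups had 3 replicates (12 libraries), with the letters A, B and C for mock and D, E and F for METTL7A1. The study describes its polysome profiles as coming from independent fractionations of biological triplicates. No source used here ties the single libraries to cultures, so the p-values measure only the spread between these libraries.

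Apart from the acidic stalk proteins, each ribosomal protein occurs as a single copy in its subunit, and the proteins are made in balanced amounts from genes scattered over the chromosomes. Their mRNAs belong to the TOP class, which starts with a cytosine followed by a run of pyrimidines. This tract lets LARP1 and the mTOR pathway hold the whole class out of polysomes when nutrients or growth signals are lacking. The mRNAs are also short, and the number of ribosomes that a reading frame can carry, hence its place in the gradient, grows with its length.

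Start sites of 62 members were taken from RefSeq on GRCm38.p6. A run of at least 5 pyrimidines that opens with C, sought on the transcribed strand within 3 bases of the listed start, was found in 23 of the 62 members (37.1%). It was found in 1050 of 8625 other tested coding genes (12.2%). The listed starts of many members differed from those of GENCODE, so that no match says only that these letters were not at the listed start. In 12 members the run opened at the listed start itself. The 6 shown were picked from these after their values were seen, so as to range from strongly sub-polysomal to evenly distributed mRNAs. Each gives the 5 bases before and the 15 bases from the start, with the run in capitals:
Rps27: tcgctCCTTTCCggcggtga
Rpl38: tcgttCTTTCCCCgttctct
Rps18: ccgctCTCTCTTCCacagga
Rps15a: gccatCTTCCCTCgccggtg
Rps6: cgggcCTCTTTTTCgtgacg
Rpl15: gccttCTTCCTTTCCTCTgg
These windows lie at chr3:90213634-90213653 on the minus strand (Rps27), chr11:114668575-114668594 on the plus strand (Rpl38), chr17:33955651-33955670 on the minus strand (Rps18), chr7:118116133-118116152 on the minus strand (Rps15a), chr4:86857353-86857372 on the minus strand (Rps6) and chr14:18270972-18270991 on the minus strand (Rpl15). The runs were 7, 8, 9, 8, 9 and 13 bases long in that order. Their mRNAs had log2 ratios of polysomal to sub-polysomal CPM (counts relative to the library total) of -2.28, -1.32, -0.75, -0.81, -0.50 and 0.00 in mock cells. The longest runs found, 17 bases in Rpl27a and 14 in Rpl13a, opened near the start and belonged to mRNAs with ratios of -1.43 and -0.63 in mock cells. Among the tested coding members, the 23 with a run had a median log2 ratio of -0.99 in mock and -1.39 in METTL7A1 cells, and the 35 without one had medians of -0.89 and -1.28.

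Library totals lay between 1817520 and 6966156 counts, and the shallowest was mock sub-polysomal A. Mettl7a1 itself was at 4 to 24 counts per mock library and at 989 to 2436 where the cells carried its cDNA, as labelled. The epithelial markers Krt8, Krt18, Epcam and Cdh1 were counted in every library. Ptprc, Pecam1 and Col1a1, markers of leukocytes, endothelium and fibroblasts, had 0 to 2 counts, and the macrophage marker Cd68 had 20 to 167 counts. The 88 members took 10.9 to 14.8% of the counts in the mock sub-polysomal and 13.7 to 15.1% in the METTL7A1 sub-polysomal libraries. In the polysomal libraries their share was 6.74 to 8.22% in mock and 6.54 to 7.06% in METTL7A1 cells. The lowest share was that of replicate A in both mock pools and that of replicate D in both METTL7A1 pools. Genes encoded by mitochondrial DNA took 4.37 to 8.49% of the sub-polysomal and 0.684 to 2.14% of the polysomal counts. The part of this difference in the results was not tested. The TMM factors were 0.806 to 0.977 in the sub-polysomal and 1.11 to 1.23 in the polysomal libraries. This scaling puts each ratio of pools lower than a ratio of plain library shares would be. The ratios below compare scaled CPM of 2 pools and do not give the fraction of an mRNA's molecules that was on polysomes.

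Of the 88 members, 80 had at least 1 CPM in at least 3 libraries and were tested, 47 of the large and 33 of the small subunit. The 8 below this limit were Rpl3l, Rpl10l, Rpl39l, Rpl24, Rps4l, Rps12l1, Rpl32l and Rpl6l. Rpl10l, the testis paralogue of Rpl10, and Rps4l had 0 counts in every library, which allows up to 0.372 to 1.69 CPM (3 counts) depending on the library, for counting error only. Rpl39l and Rpl3l, the latter a muscle paralogue, had at most 1 count in any library. Rpl24, which encodes an abundant large subunit protein, had at most 2 counts, and Rps10 had only 5 to 24 counts. Both share exons on the same strand with a listed readthrough gene, Rpl24 over 71.5% of its exonic bases with Gm28037 and Rps10 over 38.8% with Gm49804. Rpl13a shared 54.9% with Gm45713 and had 190 CPM on average. The 3 readthrough genes were listed at 0 counts in every library. On the opposite strand, Rpl23a (55.4%), Rpl30 (55%) and Rps25 (48.7%) overlapped other listed genes over about as much of their exons. Rpl24 and Rps10 were thus hardly measured here. Rps10 passed the filter and is included in the counts of tested members. Ribosomal protein pseudogenes took as many counts as 0.374 to 0.511% of those of the members.

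In mock cells, most ribosomal protein mRNAs had a lower share of the polysomal pool. With edgeR's quasi-likelihood test at a Benjamini-Hochberg adjusted p below 0.01 over 12224 genes, 58 of the 80 tested members were lower, beside 17.9% of all genes tested. None was higher (0 of 80), beside 15.7% of all genes. No member was higher at an unadjusted p below 0.05 either (0 of 80). At that p 66 members were lower, beside 6617 of all 12224 genes in either direction. DESeq2 and limma-voom also called no member higher (0 each). The median log2 ratio was -0.93 over the members and 0.05 over all genes, and single members ranged from -3.02 to 0.20. In METTL7A1 cells 61 members were lower, beside 23.7% of all genes, and 2 (Rpl4 and Rpl5) were higher, beside 23% of all genes. The members' median was -1.29 and that of all genes 0.06. The subunits had similar medians, -0.89 (large) and -1.00 (small) in mock and -1.27 and -1.30 in METTL7A1 cells. With a limit of 1.5 on the log2 ratio added, 16 members were lower in mock cells, beside 6.86% of all genes, and 28 in METTL7A1 cells, beside 10.3%. With scaling factors computed within each pool, the median of all genes moved to 0.48 in mock cells, 34 members were lower (10.3% of all genes) and 2 higher (38.7% of all genes), and the members' median stayed 0.99 below that of all genes. No other scaling moved the mock count of lower members by over 1.5 times.

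**Figure D1:**
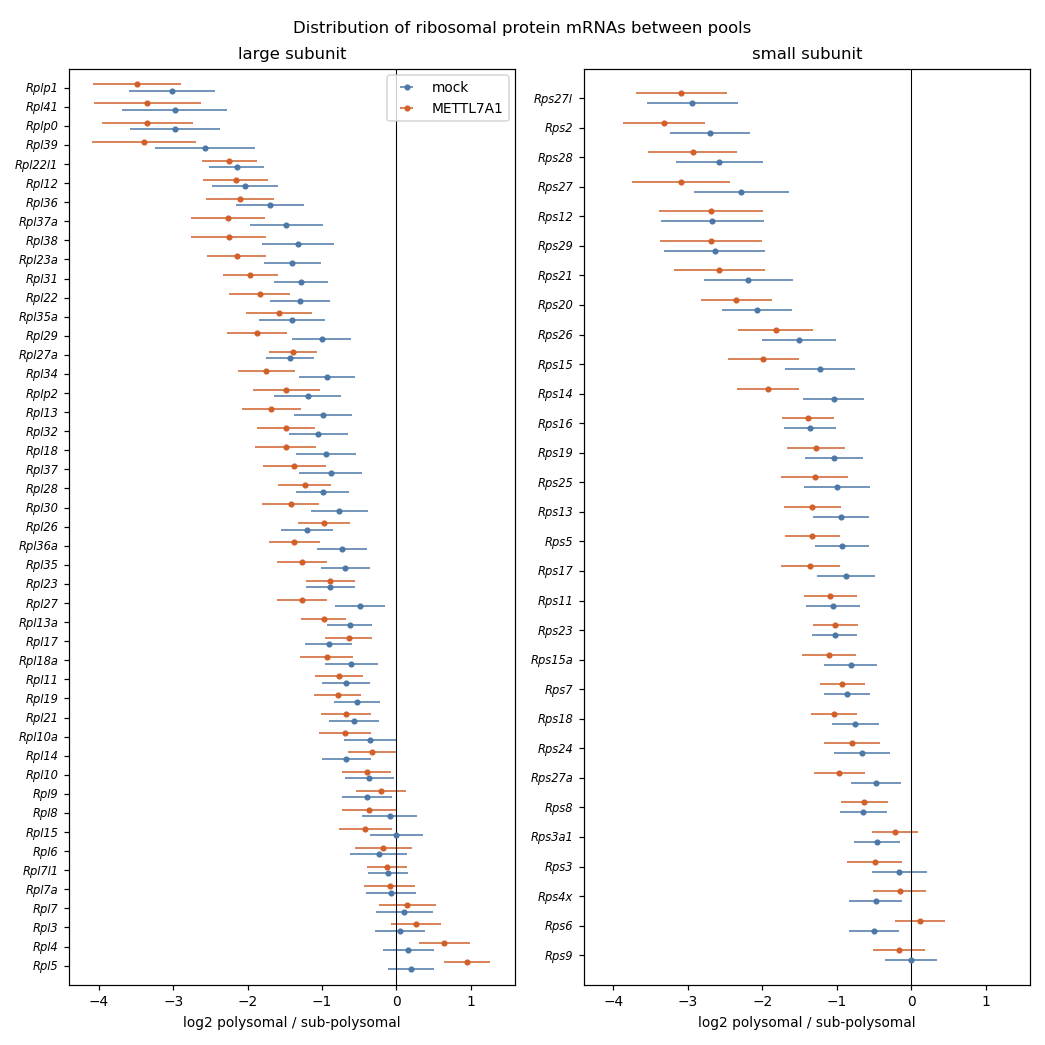
Log2 ratio of polysomal to sub-polysomal CPM (horizontal axis) of the 77 members with a mean of at least 50 CPM, in mock (blue) and METTL7A1 cells (orange), with 95% confidence intervals of the fit from 3 replicates a group. Members run from Rplp1 and Rps27l at the top, near -3, to Rpl5 and Rps9 at the bottom.

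The stalk of the large subunit, which recruits the translation factors, had 2 of the most uneven members, Rplp0 and Rplp1, and 1 that lay closer to the family's median, Rplp2. Rplp0 anchors the stalk on the rRNA. Its mRNA had 6863, 13150 and 11590 CPM in the mock sub-polysomal libraries A to C and 943, 1353 and 1731 CPM in the polysomal ones. In METTL7A1 cells it had 9116, 12060 and 17250 CPM (D to F) against 1159, 1324 and 1299 CPM. Every sub-polysomal library was therefore several times above every polysomal library. The log2 ratio was -2.97 ± 0.29 (SE) in mock (adjusted p = 5.32e-07, edgeR) and -3.35 ± 0.29 in METTL7A1 cells (adjusted p = 6.91e-08), a 7.85-fold and a 10.2-fold difference. Rplp1, one of the acidic proteins that dimerise on it, was as uneven, with 6546, 11890 and 10280 CPM against 732, 1381 and 1436 CPM in mock and 14110, 15780 and 15550 CPM against 1064, 1408 and 1583 CPM in METTL7A1 cells. Its log2 ratios were -3.02 ± 0.28 and -3.49 ± 0.28. Rplp2, its partner in the dimer, had 1035, 1633 and 1763 CPM against 504, 731 and 708 CPM in mock cells. With 1839, 2279 and 2127 CPM against 584, 778 and 875 CPM in METTL7A1 cells, its log2 ratios were -1.19 ± 0.21 and -1.48 ± 0.22. The coding sequences of Rplp1 and Rplp2 have nearly the same length, 342 and 345 nt. Per kb of exon, Rplp1 had 19180 and Rplp2 1404 CPM in the mock sub-polysomal pool, and 2371 and 616 CPM in the polysomal pool.

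Rps2 stood with Rplp0 among the long reading frames. Rps2 lies at the entry of the mRNA channel. It had 2471, 4459 and 4195 CPM in the mock sub-polysomal and 470, 569 and 672 CPM in the polysomal libraries. In METTL7A1 cells it had 3983, 5434 and 7843 CPM against 535, 598 and 592 CPM. The log2 ratios were -2.70 ± 0.26 (adjusted p = 4.83e-07, edgeR) and -3.32 ± 0.26 (adjusted p = 4.11e-08), and the pools did not overlap in either genotype. Its coding sequence has 879 nt, and that of Rplp0 has 951 nt. Of 1483 other tested genes with 600 to under 900 coding nt, 6 had a lower ratio than Rps2 in mock cells (0.405%) and 4 in METTL7A1 cells. Of 7905 other genes with 900 nt or more, 10 were lower than Rplp0 in mock (0.127%) and 11 in METTL7A1 cells. This class runs up to 26397 nt and Rplp0 lies near its lower end, so these are not only genes of like length. The ribosomal protein gene Rpsa, outside the name rule, had log2 ratios of -2.53 and -3.02 with 885 coding nt. Rps12 and Rpl12 also stood low in their length classes, but less so. In mock cells 2.46% of the 488 other genes of its length class had a lower ratio than Rps12. For Rpl12, which sits at the stalk base, 3.40% of 676 had a lower one. In METTL7A1 cells these shares were 5.33 and 5.62%, and Rpl23a ranked as low there (5.62%).

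**Figure D2:**
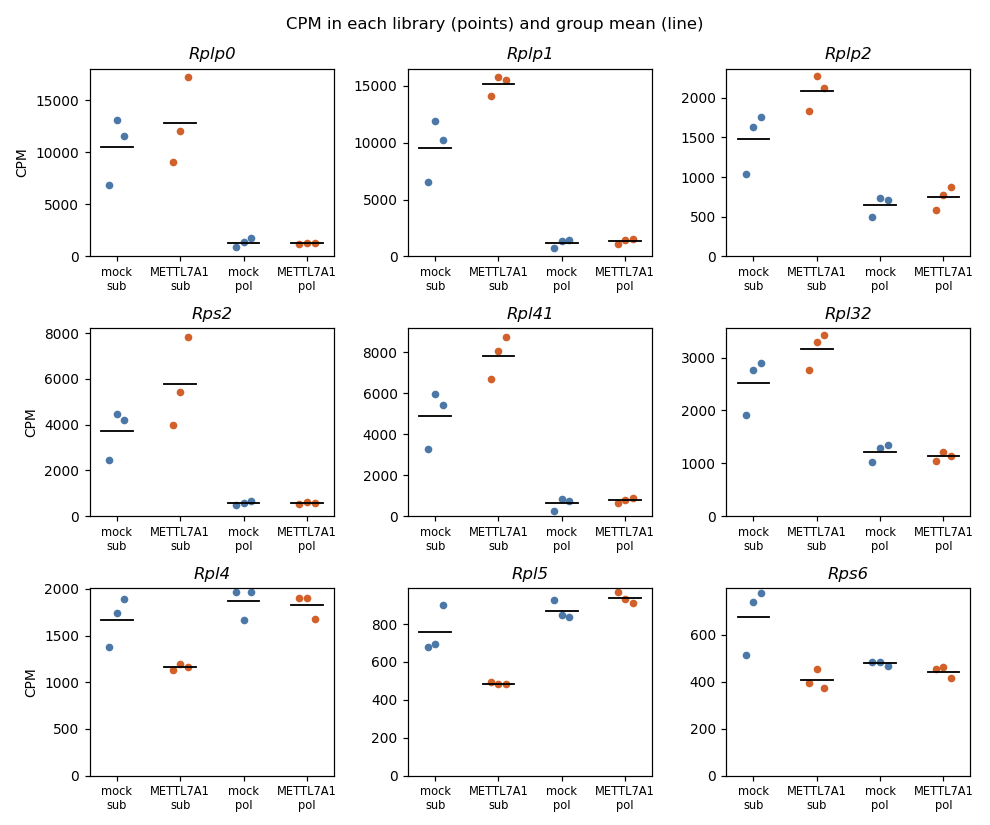
CPM (linear axis) of 9 members in each library, with points for the 3 replicates of a group in the order of their letters and a line for the group mean. The sub-polysomal values of Rplp0, Rplp1, Rps2 and Rpl41 lie several times above the polysomal ones, and those of Rpl4, Rpl5 and Rps6 do not.

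The smallest proteins made up most of the rest of the sub-polysomal end. Rpl41, the smallest of all with 75 coding nt, had 3260, 5951 and 5414 CPM in the mock sub-polysomal and 258, 855 and 741 CPM in the polysomal libraries. In METTL7A1 cells these were 6672, 8063 and 8745 CPM against 631, 792 and 886 CPM, and the log2 ratios were -2.98 ± 0.34 and -3.35 ± 0.34. Rps28, next to the mRNA exit, had log2 ratios of -2.58 ± 0.28 and -2.94 ± 0.28. Rpl39, which lines the tunnel for the nascent chain, had ratios of -2.58 ± 0.32 and -3.39 ± 0.33. Mock polysomal A had the lowest level of these short mRNAs, for example 50.1 CPM of Rps28 beside 94.7 and 137 CPM in replicates B and C. Without both mock libraries lettered A, 65 members were lower in mock cells, beside 15.7% of all genes, and the members' median was -0.99.

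At the other end stood Rpl5, Rpl4 and Rpl3, all with long reading frames. Rpl5 joins Rpl11 and the 5S rRNA in the 5S RNP, the particle that also binds MDM2. Rpl5 had 681, 696 and 899 CPM in the mock sub-polysomal and 925, 848 and 836 CPM in the polysomal libraries, which overlapped. In METTL7A1 cells it had 492, 483 and 481 CPM against 967, 935 and 914 CPM, with every polysomal library above every sub-polysomal one. The log2 ratio was 0.20 ± 0.15 in mock (adjusted p = 0.287, edgeR) and 0.95 ± 0.15 in METTL7A1 cells (adjusted p = 2.76e-05). Its partner Rpl11 had ratios of -0.68 ± 0.16 and -0.77 ± 0.16, both called, so that the 2 proteins of this particle had mRNAs on either side of 0. Of the exonic bases of Rpl5, 46.6% overlap Dipk1a on the opposite strand, which had 110 to 317 counts itself. Rpl4, which reaches into the exit tunnel, had 1375, 1744 and 1895 CPM against 1965, 1670 and 1970 CPM in mock cells. In METTL7A1 cells it had 1136, 1201 and 1166 CPM against 1907, 1897 and 1678 CPM, with log2 ratios of 0.16 ± 0.16 (adjusted p = 0.434) and 0.65 ± 0.16 (adjusted p = 0.00228). The Rpl4 call in METTL7A1 cells was lost without polysomal replicate D, without replicate E and with scaling to Actb. Rpl3, at the peptidyl transferase centre, had ratios of 0.04 ± 0.16 and 0.27 ± 0.16, neither called. In the small subunit Rps9 (-0.01 and -0.17), Rps6 (-0.50 and 0.12) and Rps4x (-0.48 and -0.16) had the highest ratios averaged over the genotypes among members with at least 50 CPM, and none was called in either genotype. Rps6 is the substrate of the S6 kinases.

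Groups by place on the ribosome were spread over the same range. The counts of lower genes below stand beside 17.9% of all genes in mock and 23.7% in METTL7A1 cells. Of the tested members, 72.5 and 76.2% were lower. The lists were drawn up with earlier results of these data known. All 8 listed proteins at the exit of the nascent chain tunnel were lower in polysomes in both genotypes. They were Rpl17, Rpl19, Rpl22, Rpl23a, Rpl26, Rpl31, Rpl35 and Rpl39, with medians of -1.24 in mock and -1.55 in METTL7A1 cells. Rpl4, which also reaches into this tunnel, was not on the list. Its log2 ratios were 0.16 in mock (not called) and 0.65 in METTL7A1 cells (called higher). Of 4 proteins at the mRNA entry or ubiquitinated on collided ribosomes (Rps2, Rps3, Rps10 and Rps20), 2 were lower in mock and 3 in METTL7A1 cells. The third in METTL7A1 cells was Rps10, with only 6 to 24 counts per library there. Rps3, with log2 ratios of -0.16 and -0.49, was called in neither. The 3 at the mRNA exit (Rps14, Rps26 and Rps28) and the 2 at the decoding centre (Rps15 and Rps23) were lower in both. Of 18 listed genes mutated in Diamond-Blackfan anaemia, an inherited failure of red cell production, 14 were lower in mock and 16 in METTL7A1 cells. The one called higher, in METTL7A1 cells, was Rpl5. The medians of these 18, -0.99 and -1.32, lay close to those of the family. Rpl32, a transcript that the study amplified, lay near the middle, with 1913, 2763 and 2903 CPM against 1023, 1292 and 1353 CPM in mock and log2 ratios of -1.05 ± 0.19 and -1.48 ± 0.19.

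The position of a member followed the length of its coding sequence. The 78 tested coding members have 75 to 1257 coding nt (median 453), and the 10767 other tested coding genes 111 to 26397 nt (median 1380). Of all genes, 17.9% were called lower in polysomes in mock and 23.7% in METTL7A1 cells. All 10 members under 300 nt were lower in both genotypes, with median log2 ratios of -2.43 in mock and -2.81 in METTL7A1 cells. The 28 members with 300 to under 450 nt had medians of -1.12 and -1.41, and the 18 with 450 to under 600 nt medians of -0.89 and -1.00. The 19 with 600 to under 900 nt had medians of -0.37 and -0.37, and 6 of them were called lower in each genotype. Across the 78 members, which share the libraries, Spearman's rho between coding length and ratio was 0.68 in mock and 0.71 in METTL7A1 cells, and 0.79 and 0.82 without Rplp0 and Rps2. Other genes also had higher medians in the longer classes. Their medians in mock cells were -1.59 under 300 nt (215 genes), -1.05 at 300 to under 450 nt (488 genes), -0.51 at 450 to under 600 nt (676 genes) and -0.15 at 600 to under 900 nt (1483 genes). The members' medians were thus below those of other genes in each of these 4 classes, by an amount that ranged from under 0.1 at 300 to under 450 nt to over 0.8 under 300 nt. Under 300 nt, 7 of the 10 members lay below the lower quartile of the others in mock cells, and at 300 to under 450 nt 14 of the 28 were above their median. Whether members and other genes of like length differ was not tested.

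**Figure D3:**
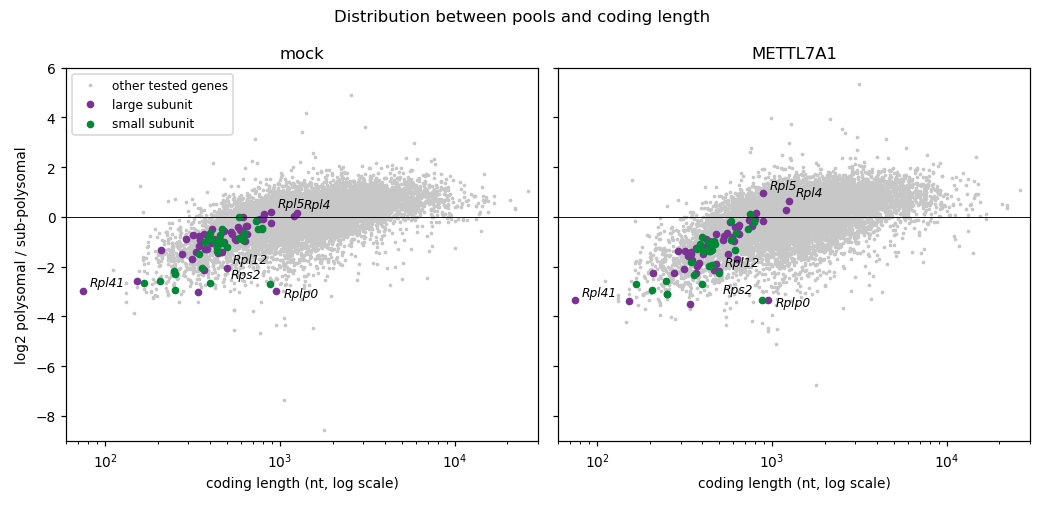
Log2 ratio of polysomal to sub-polysomal CPM (vertical axis) against coding length (log axis, nt) in mock and METTL7A1 cells, for tested members of the large (purple) and small subunit (green) and other tested coding genes (grey). Members rise with length from Rpl41 at 75 nt to Rpl4 at 1257 nt. Rplp0 and Rps2 lie far below most other genes of their length class.

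Paralogues were set side by side where both were measured. Rps27 and Rps27l both have 252 coding nt. Rps27 had 1580, 3507 and 2785 CPM against 270, 611 and 737 CPM in mock and 3845, 4169 and 4433 CPM against 428, 472 and 556 CPM in METTL7A1 cells. Rps27l, a p53 target, had 1550, 2007 and 1095 CPM against 97.1, 248 and 260 CPM in mock and 1738, 1806 and 2067 CPM against 196, 226 and 238 CPM in METTL7A1 cells. Their log2 ratios were -2.28 ± 0.31 and -2.94 ± 0.29 in mock, with overlapping 95% intervals (-2.92 to -1.64 and -3.55 to -2.33), and -3.10 ± 0.32 and -3.09 ± 0.29 in METTL7A1 cells. Rpl22 and Rpl22l1 had ratios of -1.29 ± 0.19 and -2.15 ± 0.18 in mock cells, and here the intervals, -1.69 to -0.89 and -2.52 to -1.77, did not overlap. In METTL7A1 cells they had -1.84 ± 0.20 and -2.25 ± 0.18, with overlapping intervals. Rpl7 and its relative Rpl7l1 were even in both genotypes, between -0.13 and 0.15, while Rpl7 had 1485 and Rpl7l1 81.7 CPM per kb of exon in the mock sub-polysomal pool. Rpl36a had ratios of -0.73 ± 0.16 and -1.37 ± 0.16, and the intronless Rpl36al -1.44 and -2.26, all called. Rpl10 had -0.37 and -0.40, and neither was called. The differences between paralogues were not themselves tested.

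The shift to polysomes, the log2 ratio in METTL7A1 minus that in mock cells, was not called for any member. edgeR called 0 of the 80, beside 0% of all 12224 genes. At an unadjusted p below 0.05 there were 17 of 80 members (14 with a negative and 3 with a positive shift) and 1911 of all genes. The lowest adjusted p of a member was 0.129 (edgeR), for Rpl5. DESeq2 called 64 genes, of which 1 was a member, Rpl5 with a shift of 0.75 (adjusted p = 0.00238), and limma-voom called 0 genes. The estimates of 64 members were below 0 and those of 16 above. The median was -0.29 over the members and -0.01 over all genes, and it ranged from -0.38 to -0.14 when single libraries were left out. With offsets for each library's trend with GC content it was -0.14. The members' SD of 0.39 in the shift was below the 0.58 over all genes, which include many of low counts. Spreads at like abundance were not compared.

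**Figure D4:**
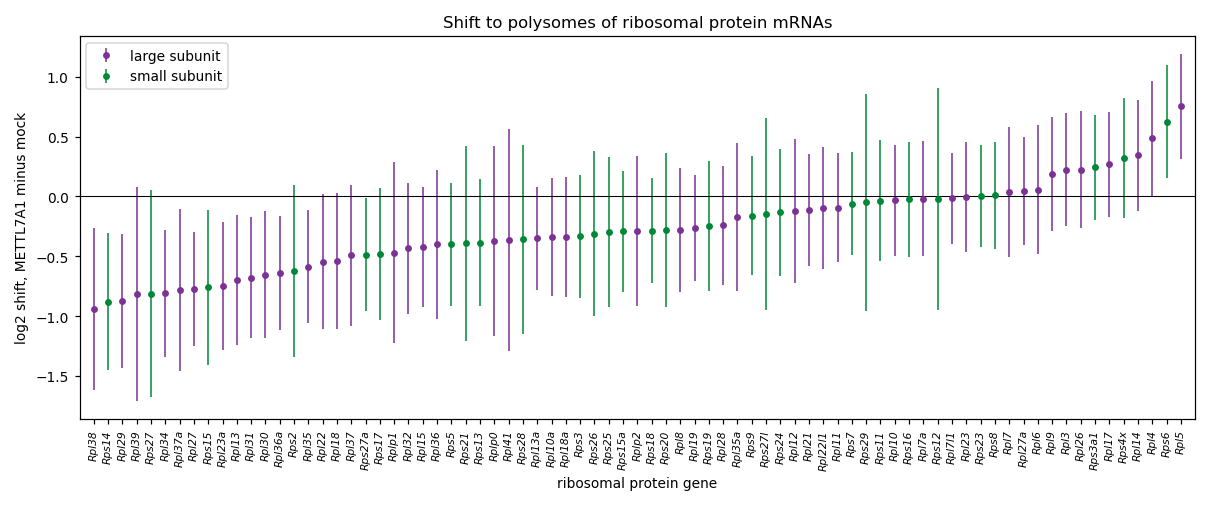
Log2 shift to polysomes (METTL7A1 minus mock, vertical axis) of the 77 members with a mean of at least 50 CPM in rising order, with 95% confidence intervals; purple marks the large and green the small subunit. Shifts run from -0.94 for Rpl38 to 0.76 for Rpl5, and no adjusted p is below 0.01.

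The lowest shifts among members with at least 50 CPM were those of Rpl38, Rps14 and Rpl29. Rpl38, mutated in the Tail-short mouse, had 792, 1243 and 1047 CPM in the mock sub-polysomal and 247, 433 and 557 CPM in the polysomal libraries. In METTL7A1 cells it had 1703, 1764 and 1741 CPM against 313, 377 and 401 CPM. Its shift was -0.94 (95% interval -1.61 to -0.26, adjusted p = 0.176, edgeR). Rps14, at the mRNA exit, had a shift of -0.88 (-1.46 to -0.30) and Rpl29 one of -0.87 (-1.43 to -0.31). The highest shifts were 0.76 (0.32 to 1.19) for Rpl5, 0.62 (0.15 to 1.10) for Rps6 and 0.49 (0.00 to 0.97) for Rpl4. These single intervals are not adjusted for the number of members. The shift also ran with coding length, with a Spearman's rho of 0.47 over the 78 coding members and a median from -0.44 under 300 nt to -0.02 at 600 to under 900 nt. Other genes of the same classes had medians of -0.34 and -0.05.

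In the polysomal pool, no member was called between METTL7A1 and mock cells. edgeR called 0 of 80 higher, beside 5.03% of all genes, and 0 of 80 lower, beside 3.78%. DESeq2 and limma-voom called 0 members as well. At an unadjusted p below 0.05 (edgeR) 4 of the 80 members were found, all lower, beside 3819 of all 12224 genes in either direction. The members' median log2 change was -0.09 (all genes -0.01), and they spread less (SD 0.19) than all genes (SD 0.73). Of the members, 77 had a mean of at least 50 CPM, while all genes include many near the filter. The spreads were not compared at like abundance. Without mock polysomal replicate A, Rpl37 was called, with a log2 change of -0.71 (adjusted p = 0.00975, edgeR). Without both mock libraries lettered A, 3 members were lower, beside 4.76% of all genes. They were Rpl37 (-0.70), Rpl37a (-0.59) and Rps12 (-0.72).

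In the sub-polysomal pool, 5 members were higher in METTL7A1 than in mock cells, beside 10.5% of all genes, and 2 were lower, beside 7.69%. The share of members called was thus below that of all genes in both directions. The members' median log2 change was 0.28 (all genes 0.00), and 55 of the 80 estimates were above 0. Leaving out 1 library moved this median to between 0.13, without mock sub-polysomal A, and 0.39, without mock sub-polysomal B. With the GC offsets it was 0.15. Rps14 had 3295, 4089 and 2966 CPM in mock and 8315, 7769 and 6463 CPM in METTL7A1 cells, with no overlap. Its log2 change was 1.12 ± 0.20 (adjusted p = 0.000341, edgeR), and it was called in all 23 alternative fits, with changes of 0.81 to 1.40. Rps15, at the decoding centre, had 2284, 4165 and 3663 CPM against 6431, 6780 and 6427 CPM, a change of 0.96 ± 0.22. Rpl18 had 1310, 2022 and 1918 CPM against 3632, 3024 and 2404 CPM, a change of 0.79 ± 0.19. Rpl36a had 632, 713 and 843 CPM against 1094, 1201 and 1194 CPM, a change of 0.67 ± 0.16. Rps18 had 938, 1028 and 1022 CPM against 1489, 1568 and 1288 CPM, a change of 0.54 ± 0.15. In each of these 5 mRNAs the lowest METTL7A1 value was above the highest mock value. They were picked by their calls on these same values, so this is no further support. Of the 80 members, 28 had no overlap in this direction and 9 in the other. The share over all genes is not given, so these counts do not set the members against other genes.

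Rps6 and Rpl5 were lower. Rps6 had 513, 737 and 779 CPM in mock and 394, 455 and 374 CPM in METTL7A1 cells, a log2 change of -0.73 ± 0.16 (adjusted p = 0.0021, edgeR). Rpl5 fell by 0.65 ± 0.15 on the log2 scale (adjusted p = 0.00299). In both, which were picked by the same calls, no METTL7A1 library reached the lowest mock library. In the polysomal pool the log2 changes of these 7 mRNAs, which were chosen by their sub-polysomal values, were -0.11 to 0.25, and none was called. The difference between the pools, which is the shift, was not called for any of them.

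Apart from that of Rps14, each of these sub-polysomal calls was lost without at least 1 single library. Of the 23 alternative fits, Rps15 was called in 20, Rpl36a and Rps6 in 19, Rpl18 and Rpl5 in 18 and Rps18 in 10. The calls of Rpl18 and Rps18 were also lost when the compared groups were fitted alone, and that of Rps18 with no filter beyond 1 count. The numbers of members called were 1 higher (7.7% of all genes) and 4 lower (5.56%) without mock sub-polysomal replicate A, 3 and 0 without METTL7A1 sub-polysomal D, and 1 and 1 without E. Without mock sub-polysomal C none was lower (0), and without METTL7A1 sub-polysomal F 1 was lower. Without mock polysomal A 12 were higher, beside 12.1% of all genes. A count given here without the share of all genes shows only how the calls vary. With the GC offsets, Rps15 (0.46, adjusted p = 0.0799, edgeR), Rpl18 (0.23, adjusted p = 0.282) and Rps18 (0.26, adjusted p = 0.139) were not called, nor was Rpl5 (-0.45, adjusted p = 0.0262). With scaling to Actb the median of all genes moved to 0.26, Rps6 and Rpl5 were no longer called and 18 members were higher, beside 17.1% of all genes. Cell type markers also moved between the genotypes. Cd68 was higher in METTL7A1 polysomal RNA by 1.56 on the log2 scale (adjusted p = 0.00011, edgeR) and had 0.80 in the sub-polysomal pool, which was not called. Krt8 was higher in both pools (0.82 and 0.81) and Krt18 in the polysomal one (0.61), and Epcam was lower in the sub-polysomal pool (-0.71). Their part in the genotype comparisons was not tested.

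**Figure D5:**
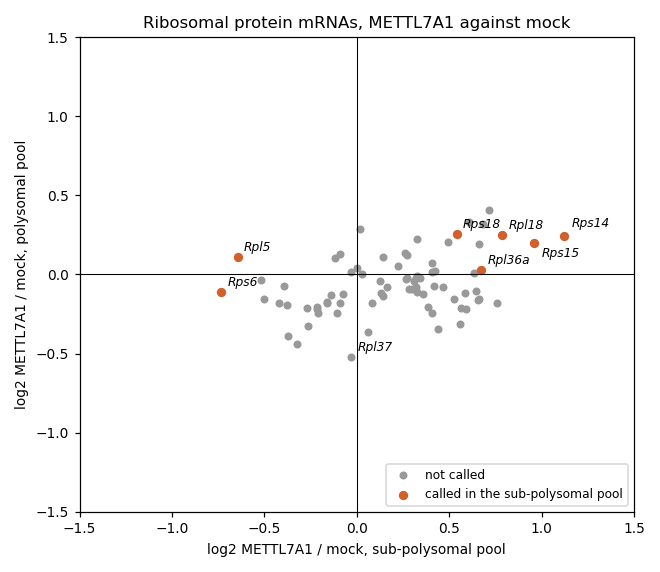
Log2 change between METTL7A1 and mock cells in the sub-polysomal (horizontal axis) and the polysomal pool (vertical axis) of the 77 members with a mean of at least 50 CPM; orange marks the 7 called in the sub-polysomal pool. The points spread along the horizontal axis, from -0.73 for Rps6 to 1.12 for Rps14, and stay between -0.52 and 0.40 on the vertical one.

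Other genes tied to the family were followed in the same fit. Of the ribosomal protein genes outside the name rule, Rpsa and Fau (-1.06 and -1.56) were lower in polysomes in both genotypes. Rack1, a small subunit protein of the WD repeat family, had ratios of 0.09 and -0.08 and was not called. A list of 16 other TOP mRNAs encodes elongation and initiation factors and other proteins. In mock cells 3 of the 16 were higher and 2 lower in polysomes, beside 15.7 and 17.9% of all genes. These counts were near the background. In METTL7A1 cells 9 were higher and 3 lower, beside 23 and 23.7%. Eef1a1, the elongation factor that delivers aminoacyl-tRNA, had log2 ratios of 0.58 (adjusted p = 0.0107, edgeR) and 1.44 (adjusted p = 2.16e-06). Pabpc1, the poly(A) binding protein, had -2.07 and -1.70, both called. The shift of these 16 had a median of 0.35, above 0 in 15, beside the median of -0.29 of the ribosomal protein mRNAs. Their coding sequences had a median of 1101 nt, against 453 nt. In the sub-polysomal pool 3 of the 16 were lower in METTL7A1 cells, beside 7.69% of all genes, among them Eef1a1 with -1.15 (adjusted p = 1.17e-04) and Hnrnpa1 with -1.00 (adjusted p = 1.62e-04).

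Of 12 regulators of TOP translation, 3 were higher in the sub-polysomal pool of METTL7A1 cells, beside 10.5% of all genes. They were Rptor (0.79), Mlst8 (0.81) and Eif4ebp2 (0.54). Rptor and Mlst8 encode subunits of the mTORC1 kinase and Eif4ebp2 encodes one of its targets. Larp1, which binds the TOP tract, had log2 changes of 0.18 and -0.04 in the sub-polysomal and polysomal pools, neither called. Of 8 chaperones and escorts of single ribosomal proteins, Grwd1, the escort of Rpl3, was higher in the sub-polysomal pool of METTL7A1 cells (1.13, adjusted p = 5.76e-05, edgeR). Ltv1, which acts at Rps3 in 40S assembly, was lower in both pools (-0.75 and -0.58). In the sub-polysomal pool 1 of the 8 was thus higher and 1 lower, beside 10.5 and 7.69% of all genes. These counts were near the background. The 1 lower of 8 in the polysomal pool stands beside 3.78% of all genes.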

How the data were processed

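The authors deposited whole-number counts per gene without normalization. Per the study's methods and the submitters' processing notes, reads of rRNA-depleted, stranded libraries were made with bcl2fastq 2.20.0.422, trimmed with BBDuk, aligned to mm10 with STAR 2.5.3a and counted with featureCounts in R 3.5.1 against an Ensembl GRCm38 annotation. The strand setting and the handling of multiple or overlapping hits are not given in the sources used here. Reads shared by near-identical copies or overlapping genes may thus be missing or misplaced.

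Members were chosen by symbol, and both the members and the lists were chosen with earlier results of these data known. The 12224 genes that reached 1 CPM in 3 or more libraries were fitted in R 4.3.3 (edgeR 4.0.16, TMM factors), all 12 libraries together and 1 mean for each group. The quasi-likelihood test and Benjamini-Hochberg adjustment gave calls at an adjusted p below 0.01. Standard errors were the log2 change divided by the square root of F, and intervals are of 95%. CPM values used the TMM factors. The fit was tested on simulated data. Named were the stalk genes, paralogue pairs, the 3 highest and 3 lowest ratios per subunit and the 3 highest and 3 lowest shifts (mean of at least 50 CPM), members called between genotypes, Rpl32, Rps2, members under the filter and the role lists. Rps12, Rpl12, Rpl37 and Rpl37a were named after their values were seen.

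Library totals of 1817520 to 6966156 counts put 3 counts at 0.372 to 1.69 CPM with these factors. Coding lengths and gene ends came from GENCODE M21 (GRCm38), in which all 88 symbols were found and 71 genes had the same ends as in the deposited table. Start sequences came from RefSeq (GRCm38.p6, 62 of 88 matched). Alternatives were RLE factors, DESeq2 1.42.0, limma-voom (limma 3.58.1), TMM without the members or within each pool, Actb scaling, both filters, the compared groups alone, the replicate block, GC offsets, other thresholds and leaving out each library. Leaving out both mock libraries lettered A was chosen after seeing the data.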

Additional observations from a re-analysis of the deposited data

How the results depend on the processing

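The median log2 change of the ribosomal protein mRNAs kept its direction under every alternative for the ratios in both genotypes, the shift and the sub-polysomal comparison. In several settings it lay outside its range without single libraries. With factors within each pool it was -0.51 in mock cells (range -1.10 to -0.82) and -0.85 in METTL7A1 cells (range -1.33 to -1.24). With Actb scaling it was -1.53 in METTL7A1 cells. The shift then had a median of -0.47 (range -0.38 to -0.14) and the sub-polysomal comparison one of 0.54 (range 0.13 to 0.39). With factors within each pool, mock cells had 2 members higher, beside 38.7% of all genes, and 34 lower, beside 10.3%. METTL7A1 cells had 5 higher with these factors and 1 higher with Actb scaling. With a limit of 1.5 on the log2 change, 16 members were lower in mock cells, beside 6.86% of all genes. In METTL7A1 cells 28 were lower, beside 10.3%, and 0 higher. Between the pools, leaving out 1 library gave 51 to 64 lower members in mock cells and 59 to 62 lower and 1 to 2 higher ones in METTL7A1 cells. For the shift, DESeq2 called 1 member higher. Between genotypes in the polysomal pool, leaving out 1 library gave 0 to 1 lower member. Leaving out both mock libraries lettered A gave 3, beside 4.76% of all genes. The median there ranged from -0.18 to 0.04 without single libraries. In the sub-polysomal pool, higher and lower members numbered 14 and 5 at an adjusted p below 0.05 and 0 and 0 with the limit of 1.5. These numbers were 13 and 5 with DESeq2, and 18 and 0 with Actb scaling, where 17.1% of all genes were higher. There were 9 higher with limma-voom, 17 higher with no filter beyond 1 count and 8 lower without both mock libraries lettered A, while leaving out 1 library gave 1 to 12 higher and 0 to 4 lower. Where the share of all genes in a setting is not given, the count shows only how the calls vary. Such a count does not set the members against other genes. The cause of these differences was not tested. The replicate block gave 58 lower members in mock and 61 in METTL7A1 cells and a median shift of -0.29. It changed no count of calls. The pools of a genotype share letters, and whether a letter stands for 1 gradient is not given in the sources used here. Deviations from the group means correlated with r of -0.292 to 0.107 between the pools of a letter, and 5 of 12 libraries correlated best with their own letter.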

Other observations

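Of the 78 tested coding members, 29 hold at least 1 annotated snoRNA gene within their bounds and 49 hold none, a split made after the values were seen. The median shift to polysomes was -0.11 over the 29 and -0.34 over the 49, and the median log2 change between METTL7A1 and mock cells in the sub-polysomal pool was 0.03 and 0.32. Their median coding lengths were 495 and 429 nt. No test was made of this difference.

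Of 305 listed pseudogenes of ribosomal proteins named with a "-ps" suffix, 79 passed the filter. In mock cells 30 of the 79 were lower in the polysomal pool, beside 17.9% of all genes tested. In METTL7A1 cells 44 were lower, beside 23.7%. Their median log2 ratios were -1.22 in mock and -1.56 in METTL7A1 cells, and those of all genes were 0.05 and 0.06. Whether these reads came from the pseudogenes or from the parent mRNAs was not tested.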
